A study of Homo sapiens with 9 samples.

Results

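LMO7 (LIM domain only 7) carried 46 of the 24037 QKI‐5 HITS‐CLIP peaks of mesHMLE cells, all on the plus strand, which is the strand of the gene, and 0 peaks lay on the opposite strand within the gene. The peaks were chosen by position alone, from a list of called peaks: a plus-strand peak was counted when its centre fell inside LMO7 at chr13:76194570-76434006 (hg19). Only regions that the authors called appear in the list, so the presence of a peak is what selected the members and is given as a description. LMO7 was also singled out with earlier results of these data known, so its rank among genes is no test of it.

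HITS‐CLIP fixes proteins to the RNA they touch with ultraviolet light, recovers 1 protein with an antibody and sequences the attached RNA. The cells, mesHMLE, are mesenchymal-like cells derived from HMLE, an immortalised human mammary epithelial line, by TGF‐β1 at 2.5 ng/ml for at least 14 days, and they were then kept without added TGF‐β1. Every library came from these cells after crosslinking at 600 mJ/cm2, with no untreated or QKI-depleted group. There were 7 libraries of QKI‐5 immunoprecipitation (3 from the gel fraction of monomers and 4 from that of dimers, 1 of the latter made with SuperScript IV) and 2 of size-matched input, numbered as technical replicates. The immunoprecipitation libraries were pooled before peaks were called, with the input as the separate control, so no value below has a replicate error, the depth of each library is unknown and no comparison between samples could be made. Peaks do not measure expression, so they could not check the labelled cell type. CDH1 (E‐cadherin, an epithelial marker) had 0 peaks and CDH2 (N‐cadherin, a mesenchymal marker) had 3, while only 23.6% of all 20163 coding genes had any peak.

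Quaking proteins belong to the STAR family, which binds single-stranded RNA through a KH domain flanked by QUA domains and prefers a core written ACUAAY, or ACTAAC and ACTAAT as DNA. QKI‐5 is the nuclear isoform, and it acts on splice site choice from introns beside alternative exons. LMO7 has calponin homology, PDZ and LIM domains, binds afadin and alpha-actinin at adherens junctions and also binds the nuclear envelope protein emerin.

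The sequences on which the account turns are the tallest peak (38), the 4 peaks with ACTAAC (10, 31, 42 and 45), both peaks nearest to the 30 nt cassette exon (16 and 17), and that exon itself. A cassette exon is here an internal exon whose neighbours are joined directly to each other in another annotated transcript. Peaks are numbered 1 to 46 from the 5′ end of the gene, and each sequence is the GRCh37 reference on the plus strand, 5′ to 3′, with ACTAA in capitals.
Peak 10, intron 4, chr13:76343459-76343515: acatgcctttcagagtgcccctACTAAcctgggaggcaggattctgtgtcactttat
Exon 11, 30 nt cassette exon, chr13:76383290-76383319: actctttcaaaagatttatggtgagaatgg
Peak 16, intron 11, chr13:76383380-76383435: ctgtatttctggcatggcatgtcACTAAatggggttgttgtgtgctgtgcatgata
Peak 17, intron 11, chr13:76383439-76383497: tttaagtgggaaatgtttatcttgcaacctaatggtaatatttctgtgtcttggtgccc
Peak 31, intron 17, chr13:76409084-76409152: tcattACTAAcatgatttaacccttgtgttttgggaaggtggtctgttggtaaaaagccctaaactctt
Peak 38, intron 19, chr13:76412068-76412151: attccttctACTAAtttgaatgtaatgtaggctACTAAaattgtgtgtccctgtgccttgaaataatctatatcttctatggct
Peak 42, intron 22, chr13:76414718-76414782: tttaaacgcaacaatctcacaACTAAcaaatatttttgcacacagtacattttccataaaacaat
Peak 45, intron 29, chr13:76429562-76429630: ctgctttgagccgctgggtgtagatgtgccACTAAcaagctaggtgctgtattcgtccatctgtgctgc

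Peak heights, whole numbers taken over the pooled immunoprecipitation libraries as deposited, ran from 7 to 76 in LMO7, with a median of 19 and quartiles at 15.25 and 29. Over the whole list the median was 23 with quartiles at 18 and 33, and heights ran from 5 to 42903. Thus 18 of the 46 LMO7 peaks reached the median of the list, and 2 were among its tallest 10%, which began at a height of 55. LMO7 had many peaks of modest height. Peak width had a median of 59.5 nt in LMO7 and 61 nt in the list, and GC content had a median of 48.4% in LMO7 and 51.4% over all nuclear peaks.

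Among the 4750 protein-coding genes with at least 1 peak on their strand, LMO7 ranked 32 by number of peaks, with 99.3% of these genes below it. That count includes 15 peaks inside an overlapping long noncoding RNA gene and 8 of repeated sequence, both described below. The rank without them was not computed. By summed height, 1149, LMO7 ranked 88. The gene is long, at 239437 nt, and with 0.192 peaks per kb it ranked 490. By the median height of its peaks it ranked 3580, with 18.5% of genes below it. The position of LMO7 among genes therefore depended on the measure, from near the top for the count of peaks to the lower part for their typical height. A peak inside overlapping genes on its strand counted for each of them, so some ranked genes share peaks. Neither counts nor heights were adjusted for the abundance of the transcripts.

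**Figure D1:**
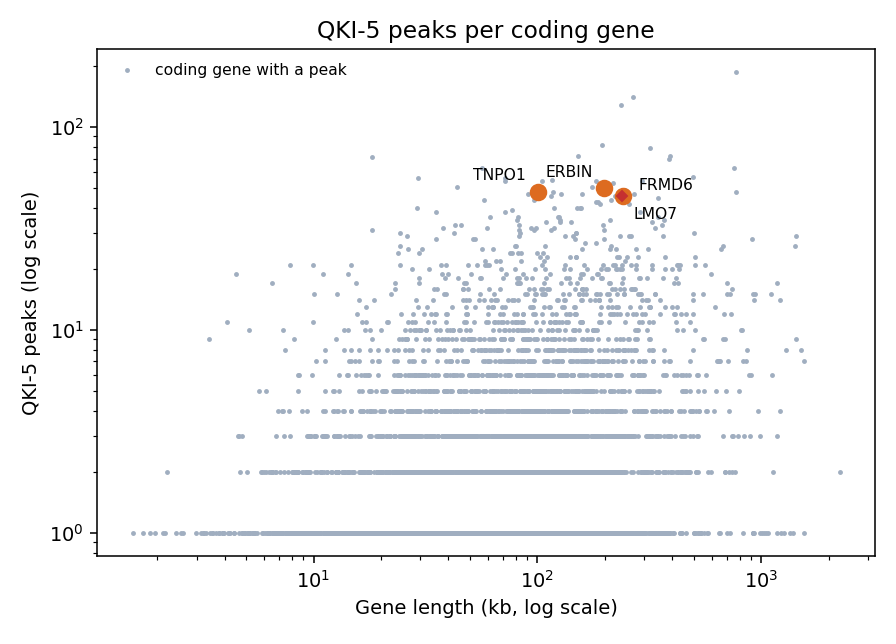
Number of QKI‐5 peaks (vertical, log scale) against gene length in kb (horizontal, log scale) for each of the 4750 coding genes with a peak. LMO7 (diamond, 46 peaks) lies almost on top of FRMD6 (46 peaks), with ERBIN (50) and TNPO1 (48) beside them (circles). WNT5B, with the same count as TNPO1, is not marked.

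Most peaks lay toward the 3′ part of the gene, 31 of the 46 after intron 4, as the plot of heights along LMO7 shows. Measured by peak centres, here and for the neighbours below, the first lay 43684 nt after the start of the gene. The last lay 3735 nt before its end. Outside the gene, the nearest plus-strand peak before it was 2127 nt away, with a height of 20, and the nearest after it was 1219091 nt away, with a height of 26. No called peak therefore lay close enough to either edge for its counting to depend on a few bases.

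**Figure D2:**
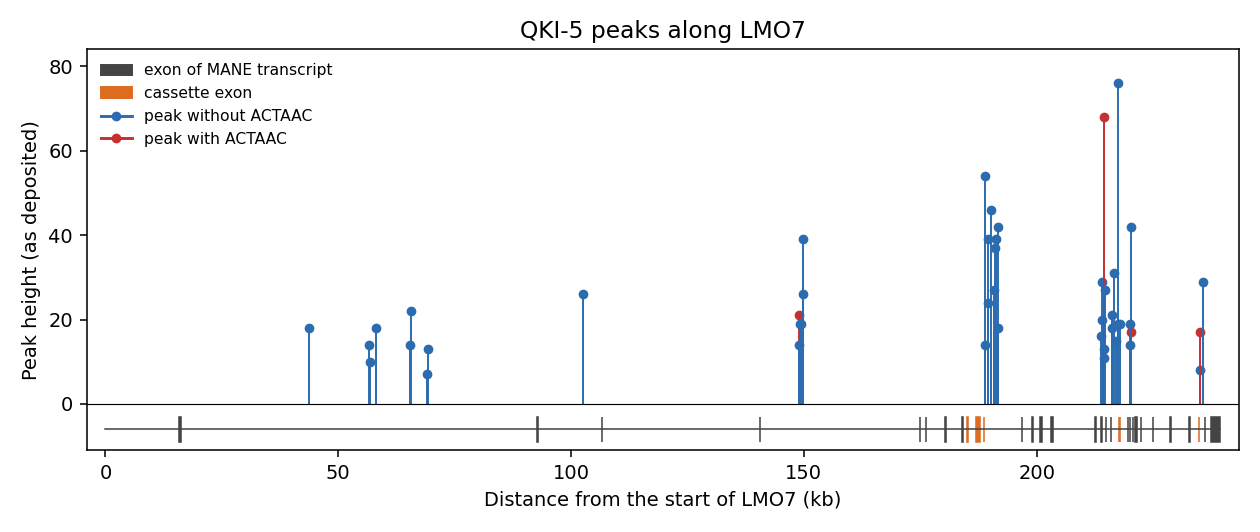
Height of each of the 46 peaks (vertical, as deposited) against distance from the start of LMO7 in kb (horizontal), with the exons below. Peaks in the long introns at the 5′ end reach at most 39, and the peaks of 54, 68 and 76 all lie after the 30 nt cassette exon (exon 11), with cassette exons in orange.

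Positions in the gene were read against its MANE transcript (ENST00000377534), which has 31 exons and 30 introns, and against all 27 annotated transcripts. By their centres 44 peaks lay in no exon of any annotated transcript and were counted as intronic, and 2 were exonic. Introns of the MANE transcript cover 216390 nt of the 239437 nt of the gene, so most positions in it are intronic. The paper describes the binding sites of the whole data set as mostly intronic too. The intronic share of the whole list was not computed, and a preference of LMO7 peaks for introns was not tested. Only 9 of the 30 introns held a peak. Neighbouring peaks no more than 1000 nt apart formed 12 runs, 3 of them of a single peak, and 16 of the 45 gaps between neighbours were at most 50 nt. Such close neighbours can be sub-peaks that the caller cut from 1 broader signal, so the 46 peaks are not 46 independent sites.

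Introns 1 to 4 make up 73.2% of the intronic length and held 15 peaks, or 0.0947 per kb. Intron 1 (76455 nt) had 8 peaks of heights between 7 and 22. Intron 2 (13776 nt) had 1 peak, number 9, with a height of 26. Intron 3 had 0. Intron 4 (34362 nt) had 6 peaks within a run of 1055 nt, with heights from 14 to 39, among them peak 10, which contains ACTAAC and was 21 high. These were the sparsest of the introns that held peaks. All 15 of these peaks also lie inside a long noncoding RNA gene on the same strand (ENSG00000261553, chr13:76123909-76381256), and none of the other 31 does, so the peaks of introns 1 to 4 cannot be assigned to LMO7 alone.

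The annotation gave 6 cassette exons, 5 in the MANE transcript (exons 9, 10, 11, 20 and 29) and 1 outside it. The 8 introns beside a cassette exon of the MANE transcript make up 8.39% of the intronic length and held 20 of the 45 peaks placed in an intron of that transcript (44.4%), a density of 1.10 peaks per kb. The other 22 introns held 25 peaks, at 0.126 per kb, and those after intron 4 held 10, at 0.251 per kb. Only 4 of the 8 introns held these peaks, namely 11, 19, 20 and 29. The introns beside exons 9 and 10 (8, 9 and 10) had 0 peaks each. The density beside cassette exons was therefore that of certain introns, and the highest densities of all were in introns 17 and 22, which are not beside a cassette exon.

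**Figure D3:**
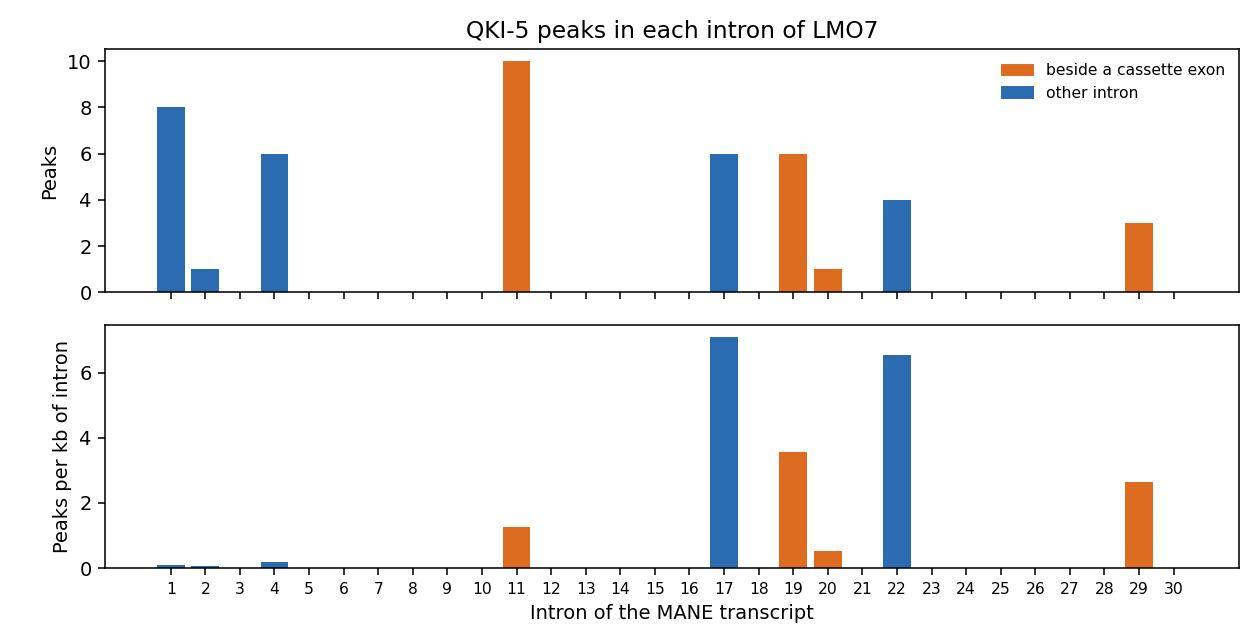
Number of peaks (upper panel) and peaks per kb (lower panel) in each of the 30 introns of the MANE transcript, with introns beside a cassette exon in orange. Intron 11 has the most peaks (10), and introns 17 and 22 have the most per kb (7.10 and 6.53).

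The 30 nt cassette exon is exon 11. Its length is a multiple of 3, 10 annotated transcripts contain it and 2 join its neighbours directly. The intron before it (954 nt) had 0 peaks, and the intron after it, intron 11 (7977 nt), had 10, the most of any intron. All 10 lay in the part of the intron nearest to the exon, the last of them starting 2905 nt after it, and the rest of the intron up to exon 12 was without a peak.

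Peak 16 was the nearest to exon 11, starting after 60 nt of intron, and with a height of 54 it was the third tallest of the gene. Peak 17 followed after 119 nt of intron with a height of 14. Peaks 18 and 19, 659 and 811 nt from the exon, were 24 and 39 high. Both of these lie in sequence that recurs in the genome, as described below. Peak 20, at 1282 nt, was 46 high. Peaks 21, 22 and 23, between 2067 and 2361 nt, had heights of 27, 37 and 39. Peaks 24 and 25, at 2868 and 2905 nt, had heights of 18 and 42. The median height of these 10 peaks was 38, and their summed height was 340. That median lay above the upper quartile of 29 of all LMO7 peaks, these 10 included, and of 33 of the list. None of the 10 contained ACTAAC or ACTAAT. Peak 16 contained ACTAAA, whose last letter differs from both forms.

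**Figure D4:**
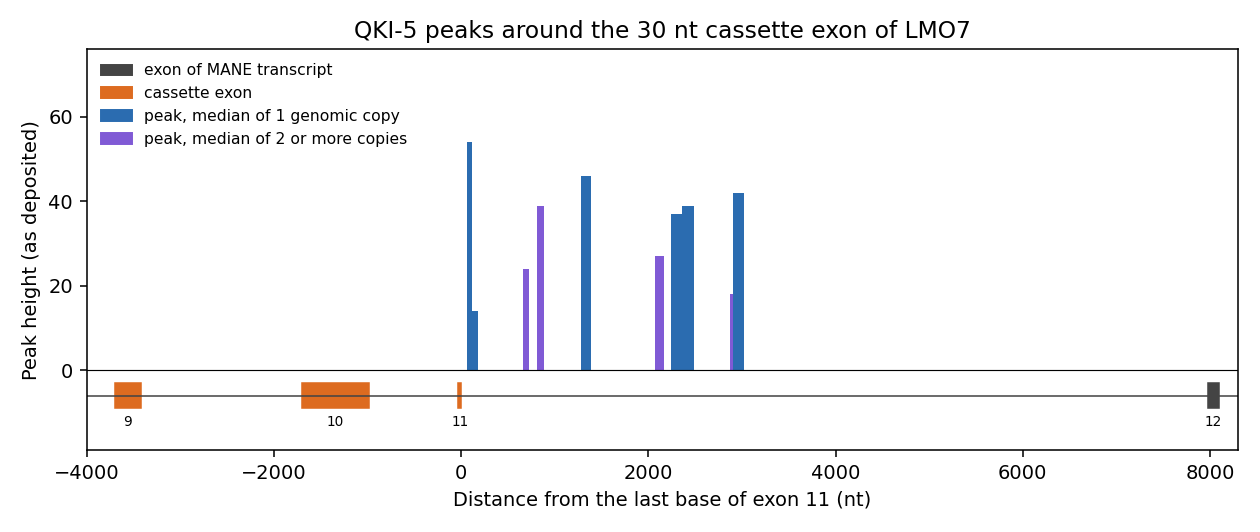
Peak height (vertical, as deposited) against distance in nt from the last base of exon 11 (horizontal), with exons 9 to 12 below. All 10 peaks lie downstream of exon 11 and none before it, and 4 of them (purple) lie in sequence with repeated copies in the genome.

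The 20 nt stretches of each peak were counted on both strands of the GRCh37 chromosomes, an examination chosen after the data were seen. In 21 of the 46 peaks every stretch occurred once, and in 38 the median, rounded down, was 1 copy. Among these 38, peak 8 had only 12 of its 24 stretches in single copy, so its median before rounding lay above 1. The other 8 peaks (5, 6, 7, 9, 18, 19, 21 and 24) had a median of 2 copies or more. Peak 18 stood apart, with a median of 11066 copies, and peak 19 had a median of 169. Of the 8, 4 lay in intron 11 (18, 19, 21 and 24). Without them intron 11 kept 6 peaks with heights from 14 to 54, a median height of 40.5 and a density of 0.752 per kb, against 1.25 with all 10. The authors removed alignments of low mapping quality before calling, and whether the reads of these 8 peaks came from LMO7 was not tested. Peaks 16 and 17, beside the exon, had a median of 1 copy.

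Intron 19 (1682 nt), before the 57 nt cassette exon 20, held 6 peaks, or 3.57 per kb. The tallest peak of the gene, number 38, was 76 high and ended 124 nt before exon 20. It was the only LMO7 peak with ACTAAT, and it contained ACTAA a second time, as the sequence above shows. Peaks 33 to 37, further upstream, had heights of 21, 18, 31, 15 and 19. On the other side of exon 20, peak 39 began after 10 nt of intron and was 19 high. Its centre was exonic only in ENST00000485987, a transcript without a defined coding sequence, and in the MANE transcript it lay in intron 20. It also lay 46 nt before the cassette exon of 42 nt (chr13:76412483-76412524), which 1 annotated transcript contains. Exon 20 was the only cassette exon with a peak within 250 nt on both of its sides.

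Intron 17 (845 nt) had the highest density, 7.10 peaks per kb, with 6 peaks, and a seventh, peak 26, lay in exon 17 just before them. Peak 26 (chr13:76408438-76408502) was 16 high and was the only peak with its centre in an exon of the MANE transcript. Peak 27, 20 high, overlapped the end of exon 17 and so crossed its 5′ splice site. Peak 28, after 30 nt of intron, was 29 high, and peaks 29 and 30 were 11 and 13 high. Peak 31, with a height of 68, was the second tallest of the gene. Its ACTAAC started 29 nt before the summit, near the 5′ end of the peak. Peak 32, with a height of 27, ended 41 nt before exon 18 of the MANE transcript, and its summit fell inside a longer form of that exon (188 nt, chr13:76409288-76409475) found in 3 annotated transcripts, whose 3′ splice site it crossed.

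Intron 22 (613 nt) held 4 peaks, or 6.53 per kb. Peak 40, 19 high, overlapped the end of exon 22 and so crossed its 5′ splice site. Peaks 41, 42 and 43 followed with heights of 14, 17 and 42. The ACTAAC of peak 42 started 18 nt before its summit. Peak 43, at 42, equalled peak 25 of intron 11 as the fifth tallest of the gene. Intron 22 thus resembled intron 17 in having its peaks begin at the 5′ splice site.

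**Figure D5:**
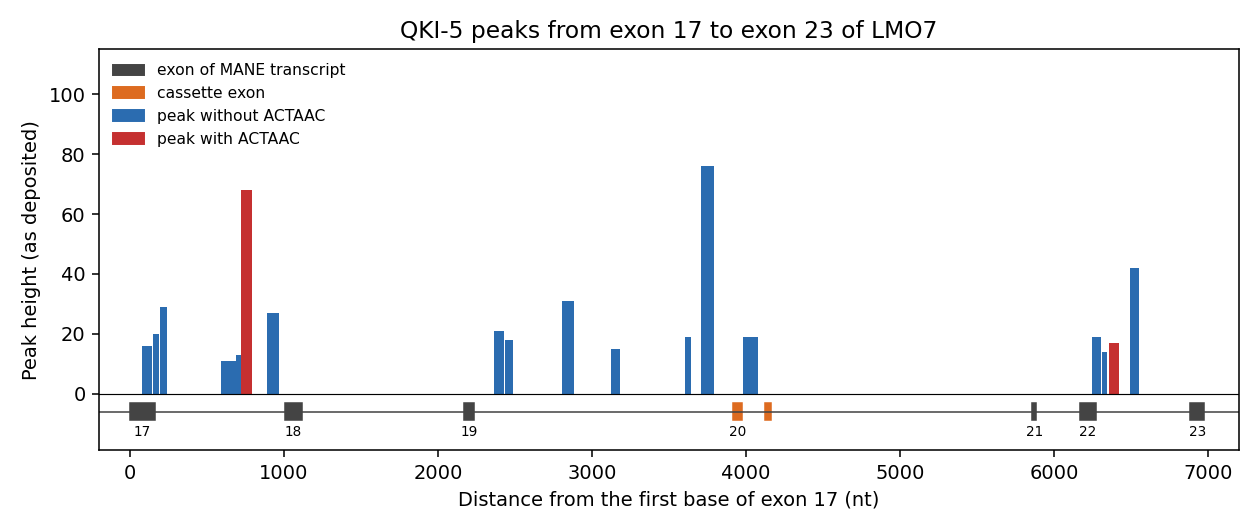
Peak height (vertical, as deposited) against distance in nt from the first base of exon 17 (horizontal), with exons 17 to 23 and the 42 nt cassette exon beside exon 20 below. The peaks of 68 and 76 stand above their neighbours, introns 18 and 21 are empty, and peaks with ACTAAC are red.

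Exon 29 (109 nt), whose length is not a multiple of 3, is the last cassette exon. Intron 29 after it held 3 peaks, or 2.64 per kb, and the intron before it 0. Peaks 44 and 45 started after 15 and 57 nt of intron with heights of 8 and 17, and peak 46, at 718 nt, was 29 high. The ACTAAC of peak 45 started 4 nt before its summit. Peak 44 was among the lowest of the gene.

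In all, 6 of the 46 peaks came within 250 nt of a cassette exon. Counted by the nearest exon, 5 lay downstream (16, 17, 39, 44 and 45) and 1 upstream (38). Their heights ran from 8 to 76, so proximity to a cassette exon was shared by the tallest peak and by 1 of the lowest. None overlapped a cassette exon. The share of all 24037 peaks that lie this close to one was not computed, so these counts describe LMO7 alone.

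ACTAAC, searched on the strand of the gene, occurred in 4 of the 46 peaks, or 8.70% (95% Wilson interval 3.43 to 20.3%, counting error only), and in 10.1% of all 24019 nuclear peaks. Windows of the same length 500 nt to the 5′ and 3′ sides of the LMO7 peaks had it in 2 and 1 of 46. The windows were not kept clear of other LMO7 peaks, and the 3′ window of peak 28 holds the ACTAAC of peak 31. They are therefore no clean background, also for the counts below. ACTAAT occurred in 1 peak, and either form in 5 (10.9%), against 13.7% of all peaks. The short core TAAC, which ACTAAC contains, occurred in 11 peaks (23.9%) and in 26.0% of the list, and 11 windows on the 5′ side but 6 on the 3′ side had it. The Wilson interval takes the peaks as independent, which close neighbours are not, so no comparison with the list rests on it. With either form in 10.9% of LMO7 peaks and 13.7% of all peaks, most peaks of both held neither full form within the called region.

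Peaks with ACTAAC had heights of 21, 68, 17 and 17, a median of 19, and the 42 peaks without it also had a median of 19. ACTAA, which was looked at after the peaks had been seen, occurred in 6 peaks (10, 16, 31, 38, 42 and 45), or 13.0%, against 15.9% of all nuclear peaks. Of the same windows, which can overlap other peaks, 5 on the 5′ side and 2 on the 3′ side had it. These 6 peaks had heights from 17 to 76 with a median of 37.5. They included the 3 tallest peaks of the gene (38, 31 and 16), whose next letters were T and A, C, and A. ACTAAA is not a form of the core ACUAAY. The heights of peaks with ACTAA in the whole list were not examined, so a link with height was not tested.

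The genes whose peaks were most like those of LMO7 were sought by number of peaks, median height and share with ACTAAC, among 1267 coding genes with at least 5 peaks. FRMD6, which encodes a FERM domain protein, was the nearest, with 46 peaks, a median height of 21.5 and ACTAAC in 5, at a distance of 0.198 over the log2 number, the log2 median and the weighted share. ERBIN, an LRR and PDZ scaffold protein at cell junctions, had 50 peaks, a median height of 21 and ACTAAC in 3, at 0.217. TNPO1, a nuclear import receptor, had 48 peaks, a median height of 22 and ACTAAC in 4, at 0.221. WNT5B, a secreted Wnt ligand, tied with TNPO1 on all of these measures. FRMD6 was also close to LMO7 in length, at 241628 nt, whereas TNPO1 and WNT5B reached their count within 100422 and 117322 nt.

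LMO7 was set beside 37 genes of cell junctions and actin scaffolds. The list was chosen with earlier results known and includes MICAL3, MPRIP, MYO18A (34 peaks) and MYOF (18 peaks), so its share with a peak is no test. Of the 37 genes, 22 had a peak (59.5%), with a median of 7 peaks among those 22. Of all 20163 coding genes, not filtered for expression in these cells, 23.6% had one, with a median of 2. MICAL3, an actin-oxidising enzyme, with 129 peaks, and MPRIP, which tethers myosin phosphatase to actin, with 51, had at least as many as LMO7. Among the known partners of LMO7, AFDN (afadin) had 13 peaks with a median height of 19, the alpha-actinin genes ACTN1 and ACTN4 had 5 and 30, and EMD (emerin) had 0. LIMCH1, the closest relative of LMO7, had 0 peaks.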

How the data were processed

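The authors trimmed the reads with cutadapt 1.3, mapped them to hg19 with TopHat2 2.0.10, used molecular barcodes to collapse duplicates, filtered alignments on mapping quality with SAMtools, pooled the immunoprecipitation libraries and called peaks per strand with MACS2 2.1.1.20160309 against size-matched input as control. The deposited height is a signal, 1 whole number per peak over the pooled immunoprecipitation libraries, and holds no count of any single sample. Depth per library is unknown, and no statistical test was run. The 95% Wilson interval describes only the error of counting peaks and takes them as independent, which close neighbours are not.

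Peak centres were placed on GENCODE release 44 models lifted to GRCh37, and positions are given with the first base counted as 1. The sequences are those of GRCh37. The peaks described singly were the 5 tallest, those within 250 nt of a cassette exon, those with ACTAAC, those with an exonic centre and those of the introns beside the 30 nt exon, and all others are given by intron. The genes named were the 3 nearest to LMO7 by Euclidean distance over log2 number of peaks, log2 median height and 4 times the share with ACTAAC (WNT5B tied for the last of these places and is named too), and the listed junction genes with at least as many peaks. Genes named as partners, relatives or cell type markers were added outside this rule. The members, gene list and rules were chosen with earlier results of these data known. Scripts were tested on simulated data. Python 3.11.15, numpy 2.4.6, scipy 1.17.1, pysam 0.24.0, matplotlib 3.10.9 and samtools 1.23.1 were used.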

Additional observations from a re-analysis of the deposited data

How the results depend on the processing

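Of 42 alternative values of 6 results, 34 stayed within 1.5 times the value given (for the median height, within the 95% interval of the median, 18 to 26). That interval takes the peak heights as independent, so it served only as a yardstick and is no replicate error. When only peaks that reached the median height of the list were kept, LMO7 had 18 peaks, 18 of them intronic, 1 with ACTAAC and 2 within 250 nt of a cassette exon, and it ranked 77 by number of peaks. By summed height it ranked 88 and by peaks per kb 490 in place of 32. Placing peaks by their summit, merging touching peaks and taking any overlap with the gene left the number at 46. With exons of protein-coding transcripts only, 45 peaks were intronic. Cassette exon windows of 100 and 500 nt held 4 and 7 peaks. Alternatives chosen after seeing the data left out the 15 peaks inside the overlapping long noncoding RNA gene, which gave 31 peaks, 29 of them intronic, with a median height of 21, or the 8 peaks of repeated sequence, which gave 38 peaks with a median height of 19. No paired analysis was possible because the immunoprecipitation libraries were pooled before calling and no result comes from a test. The pooled list limits precision: it holds no replicate error, no depth and no signal below the calling threshold, so a region without a peak is one in which none was called.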
